A study of Mus musculus with 2 samples.

Results

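The Notch pathway was described in the adult mouse kidney through 10 genes: the receptors Notch1, Notch2, Notch3 and Notch4, the ligands Jag1, Jag2, Dll1 and Dll4, and the target genes Hes1 and Hey1. They were taken by symbol from a table of 43346 genes. The rule used no measured value, but the genes were chosen with earlier results of these data known. Notch receptors sit in the cell membrane and are bound by Jagged or Delta-like ligands on neighbouring cells. Binding exposes the receptor to cutting by ADAM proteases and then by gamma-secretase, and the freed intracellular domain enters the nucleus, joins the DNA-binding protein RBPJ and switches on repressor genes of the Hes and Hey families. In the kidney the pathway is known for its part in forming the nephron, in keeping principal and intercalated cells of the collecting duct apart, and in blood vessels.

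The tissue was adult kidney of the inbred mouse strain C57BL/6J at an age of 8 weeks, with no treatment and no genetic change named in the labels. The samples formed 1 group of 2 libraries, replicate 1 and replicate 2. Each came from pooled male and female littermates. Both carry the same donor label, and their health state is given as unknown, so the SDs and p-values below cover no more than the difference between these libraries and the counting of their reads. In bulk tissue, fewer cells of a type and less RNA per cell cannot be told apart. The gene tables held 67252609 expected counts in replicate 1 and 87330097 in replicate 2. An expected count is an estimated number of sequenced fragments per gene, and TPM, a transcript abundance, is that number divided by transcript length and scaled to a common total, so levels of different genes are compared in TPM, while counts give the number of fragments behind a value.

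Kidney markers were present in both libraries. The proximal tubule list, led by Slc34a1 and Slc5a2, summed to 7384 TPM in replicate 1 and 5584 TPM in replicate 2. The lists for the thick ascending limb (led by Umod and Slc12a1), principal cells (Aqp2 and Aqp3), intercalated cells (Atp6v1b1 and Slc4a1) and podocytes (Podxl and Synpo) had all their genes at 1 TPM or more in both libraries. Markers of the adrenal and of skeletal muscle differed between the libraries, and so did Cd79a, the only lymphocyte gene reported here. The 5 adrenal steroid genes, led by Cyp21a1 and Hsd3b1, summed to 51.9 TPM in replicate 1 and 0.73 TPM in replicate 2. The 5 skeletal muscle genes, led by Acta1 and Ckm, summed to 2.25 TPM in replicate 1 and 714 TPM in replicate 2. Cd79a, a gene of B lymphocytes, had 1.55 TPM in replicate 1 and 17.95 TPM in replicate 2, from 104 and 1683 expected counts. The sums of macrophage genes (led by C1qb and C1qc) were closer, at 131 TPM in replicate 1 and 127 TPM in replicate 2. So were those of liver genes (led by Apoa2 and Alb), at 27.4 TPM in replicate 1 and 24.5 TPM in replicate 2. No marker gene was at 0 counts in both libraries.

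All 10 Notch genes had a level of 1 TPM or more in both libraries, a level reached by 13108 of all 43346 genes (30.2%). The 10 are protein-coding genes, while the 43346 also include non-coding ones, so that share is not like for like. The median level of the Notch genes, as the mean of both libraries, was 10.6 TPM, beside 12.6 TPM over those 13108 genes. Hes1 stood highest, at 48.0 ± 17.2 TPM (SD, n = 2 here and below). Below it the receptors and both Delta-like ligands fell between 9.47 and 13.02 TPM. The Jagged ligands were lower, and Hey1 was lowest at 1.85 ± 0.50 TPM. In the order of mean TPM, Notch2, Notch1, Notch4, Dll4, Notch3 and Dll1 followed Hes1, and the ranges of each neighbouring pair among these 6 overlapped, so their order did not hold beyond the spread between libraries. Jag2 and Jag1 overlapped each other and lay below Dll1 in both libraries.

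**Figure D1:**
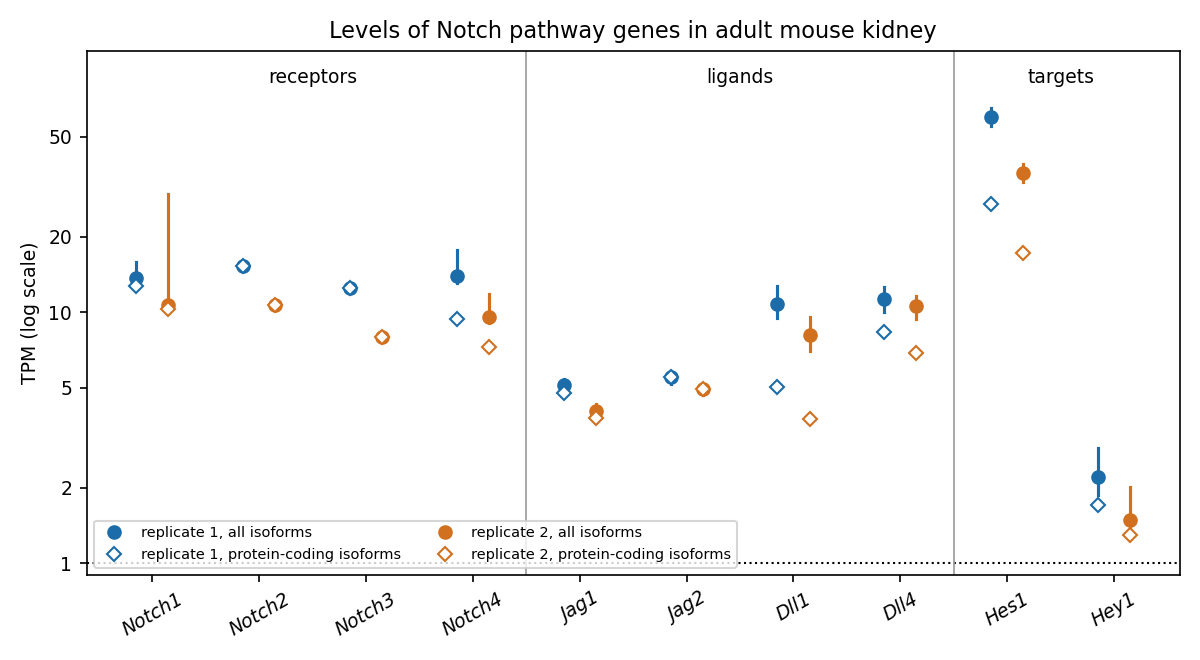
Level in TPM (log axis) of the 10 Notch genes in replicate 1 and replicate 2. Filled circles give the whole gene, vertical lines the deposited TPM interval of that gene, and open diamonds its protein-coding isoforms only. The dotted line marks 1 TPM. Hes1 stands highest and Hey1 lowest in both libraries, and the diamonds lie well below the circles for Dll1 and Hes1.

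The 4 receptors were expressed at close to equal levels. Notch2, known from mouse mutants as the receptor needed for proximal nephron fates, lies on chromosome 3 (98013527 to 98150361, plus strand, build GRCm38) and reached 15.3 TPM in replicate 1 and 10.7 TPM in replicate 2. Notch1, the receptor studied most widely, lies on chromosome 2 (26457903 to 26516663, minus strand) and reached 13.7 TPM in replicate 1 and 10.7 TPM in replicate 2. Notch4, a receptor best known in endothelium, lies on chromosome 17 (34564268 to 34588503, plus strand) and reached 14.0 TPM in replicate 1 and 9.56 TPM in replicate 2. Notch3, the main receptor of vascular smooth muscle and pericytes, lies elsewhere on chromosome 17 (32120820 to 32166852, minus strand) and reached 12.5 TPM in replicate 1 and 7.94 TPM in replicate 2. Replicate 1 was the higher library for each receptor. The summed receptor level was 55.4 TPM in replicate 1 and 38.9 TPM in replicate 2, and the highest receptor mean was 1.28 times the lowest.

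Within that sum the shares were steadier than the levels. Notch2 held 27.6% ± 0.05 of receptor TPM, Notch1 26.0% ± 1.98, Notch4 24.9% ± 0.46 and Notch3 21.5% ± 1.48. The Notch4 share depended on how its isoforms were counted. The coding isoform Notch4-201 held 67.0% of the gene's TPM in replicate 1 and 76.04% in replicate 2, but 95.4% of its expected counts in each. Most of the remaining TPM went to short non-coding models such as Notch4-210, a 619-nt processed transcript at 12.1% of TPM in replicate 1 and 7.01% in replicate 2. With protein-coding isoforms only, Notch4 stood at 8.32 ± 1.48 TPM and its receptor share at 19.4%, and the highest receptor mean was 1.57 times the lowest. Notch2-201 and Notch3-201 were the only isoforms of their genes in the deposited table. Notch1-201, of 9488 nt, held 93.4% of Notch1 TPM in replicate 1 and 96.0% in replicate 2.

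The deposited interval for Notch1 was wider in replicate 2 than in replicate 1. Notch1-211, a processed transcript of 184 nt, had an expected count of 0 in both libraries. The deposited posterior mean nevertheless gave it 34.5% of the gene in replicate 2, with an upper bound of 18.1 TPM. The deposited interval for the Notch1 gene ran from 13.68 to 15.9 TPM in replicate 1, for an estimate of 13.65 TPM, and from 10.8 to 29.6 TPM in replicate 2, for an estimate of 10.7 TPM. Both intervals lay wholly above their estimates.

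The ligands were spread more widely than the receptors, with the highest mean TPM 2.39 times the lowest. Dll4, the Delta-like ligand known for its role in arteries and sprouting vessels, lies on chromosome 2 (119325784 to 119335962, plus strand) and reached 11.3 TPM in replicate 1 and 10.6 TPM in replicate 2. Dll1, a Delta-like ligand of developing nephrons and other epithelia, lies on chromosome 17 (15367354 to 15376872, minus strand) and reached 10.8 TPM in replicate 1 and 8.11 TPM in replicate 2. Both Delta-like genes were above both Jagged genes in each library. Jag2, a Jagged ligand that binds the same receptors, lies on chromosome 12 (112907819 to 112929776, minus strand) and reached 5.52 TPM in replicate 1 and 4.94 TPM in replicate 2. Jag1, the ligand mutated in most families with Alagille syndrome in humans, lies on chromosome 2 (137081456 to 137116644, minus strand) and reached 5.12 TPM in replicate 1 and 4.05 TPM in replicate 2. Of the summed ligand TPM, Dll4 held 36.4% ± 2.67, Dll1 31.1% ± 2.66, Jag2 17.3% ± 0.70 and Jag1 15.1% ± 0.71. Summed receptor TPM was 1.69 times summed ligand TPM in replicate 1 and 1.40 times in replicate 2.

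Isoforms mattered for the lead of the Delta-like genes. The coding isoform Dll1-201 held 46.4% of Dll1 TPM in replicate 1 and 46.5% in replicate 2, while it held 84.5% and 85.8% of the expected counts in those libraries. The rest of the TPM lay in short non-coding models, which gain TPM per fragment because TPM is divided by length. Dll1-202, a retained-intron model of 797 nt, held 35.97% of Dll1 TPM in replicate 1 and 12.6% in replicate 2, from 124 and 45.8 expected counts. Its level was 3.89 TPM in replicate 1 (deposited interval 2.85 to 5.09) and 1.02 TPM in replicate 2 (0.371 to 1.71), so these intervals did not overlap. Dll1-206, a processed transcript of 605 nt, ran the other way, at 14.8% in replicate 1 and 29.4% in replicate 2, with intervals that overlapped (0.522 to 2.89 TPM and 1.44 to 3.39 TPM). Dll1-204, a retained-intron model of 751 nt, held 2.84% in replicate 1 and 10.8% in replicate 2. The summed non-coding share was 53.6% in replicate 1 and 53.5% in replicate 2.

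For Dll4, the 692-nt processed transcript Dll4-202 held 26.2% of TPM in replicate 1 and 34.97% in replicate 2, from 77.6 and 137 expected counts. The coding isoform Dll4-201 held the remaining 73.8% and 65.0%. Jag1-201 held 92.9% of Jag1 TPM in replicate 1 and 93.6% in replicate 2, and Jag2-201 was the only Jag2 isoform in the table. With protein-coding isoforms only, the ligand order changed and the highest mean was 1.79 times the lowest. Dll4 stood at 7.63 ± 1.03 TPM, Jag2 at 5.23 ± 0.41 TPM, Dll1 at 4.395 ± 0.88 TPM and Jag1 at 4.27 ± 0.68 TPM. Dll4 then lay above the other 3 in both libraries, while Jag2, Dll1 and Jag1 overlapped in turn.

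The parts of these short models that lie outside the coding isoform are small, and the rest of each model is shared with coding exons. Dll1-202 has 141 bases in intron 1 of Dll1-201 (chr17:15374960-15375100, minus strand), against 656 shared bases. Dll1-206 has 75 bases in intron 4 (chr17:15371757-15371831, minus strand), against 530 shared bases. Dll4-202 has 105 bases in intron 8 of Dll4-201 (chr2:119332038-119332142, plus strand), against 587 shared bases. These stretches are shown because only reads touching them, or their junctions and ends, tell the model from the coding isoform. They were read 5′ to 3′ on the gene's strand from GRCm38, with intron bases in capitals and the adjoining coding-isoform exon in lower case where the model runs on into it.
Dll1-202: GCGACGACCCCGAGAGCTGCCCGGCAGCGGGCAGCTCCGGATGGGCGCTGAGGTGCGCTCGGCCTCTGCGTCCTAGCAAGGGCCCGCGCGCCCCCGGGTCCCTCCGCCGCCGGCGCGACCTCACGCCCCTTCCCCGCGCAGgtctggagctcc
Dll1-206: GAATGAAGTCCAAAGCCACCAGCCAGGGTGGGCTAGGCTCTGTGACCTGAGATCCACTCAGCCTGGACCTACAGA
Dll4-202: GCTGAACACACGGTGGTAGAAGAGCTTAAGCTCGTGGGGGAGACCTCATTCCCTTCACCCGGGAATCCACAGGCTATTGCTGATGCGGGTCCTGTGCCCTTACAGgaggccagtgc

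The target genes stood at opposite ends of the order. Hes1, a repressor that is the classical Notch target and is also driven by other signals, lies on chromosome 16 (30064384 to 30067796, plus strand). It reached 60.2 TPM in replicate 1 and 35.9 TPM in replicate 2, above every receptor and ligand in both libraries. Among genes at 1 TPM or more it stood at percentile 83.6 in replicate 1 and 77.5 in replicate 2. Hey1, a related repressor best known in vessels, lies on chromosome 3 (8663359 to 8667256, minus strand) and reached 2.20 TPM in replicate 1 and 1.49 TPM in replicate 2. Its percentiles were 9.68 and 4.79 in replicates 1 and 2, and the mean TPM of Hes1 was 26.0 times that of Hey1.

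Much of the Hes1 level came from a short isoform model. The coding isoform Hes1-201, of 1468 nt, held 45.0% of Hes1 TPM in replicate 1 and 48.2% in replicate 2, but 80.4% and 82.3% of the expected counts. Hes1-203, a retained-intron model of 406 nt, held 43.5% in replicate 1 and 42.7% in replicate 2, from 282 and 241 expected counts. Its level of 26.2 TPM in replicate 1 (deposited interval 21.3 to 30.6) and 15.3 TPM in replicate 2 (12.3 to 18.2) was close to that of the coding isoform, at 27.1 and 17.3 TPM. Hes1-204, a processed transcript of 653 nt, held 11.5% in replicate 1 and 9.14% in replicate 2. The coding isoform alone stood at 22.2 ± 6.94 TPM, which was still above every other Notch gene in both libraries. With coding isoforms only, Hey1 stood at 1.505 ± 0.29 TPM, and the mean of Hes1 was 14.7 times that of Hey1. For Hey1, the coding isoform Hey1-201 held 78.0% of TPM in replicate 1 and 87.0% in replicate 2. The retained-intron model Hey1-202 held 22.0% in replicate 1 and 0% in replicate 2, from 12.97 and 0 expected counts, and Hey1-203 held 0% in replicate 1 and 10.8% in replicate 2, from 0 and 10.3 expected counts.

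Of the 406 bases of Hes1-203, 340 are coding bases of Hes1-201 and 66 lie in its intron 2 (chr16:30066097-30066162, plus strand). Those 66 bases are shown because they carry what separates an isoform at over 40% of Hes1 TPM from the coding one, with intron bases in capitals and the start of the next exon in lower case.
Hes1-203: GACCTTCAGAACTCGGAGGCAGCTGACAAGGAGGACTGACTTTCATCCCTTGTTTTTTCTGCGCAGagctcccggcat

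**Figure D2:**
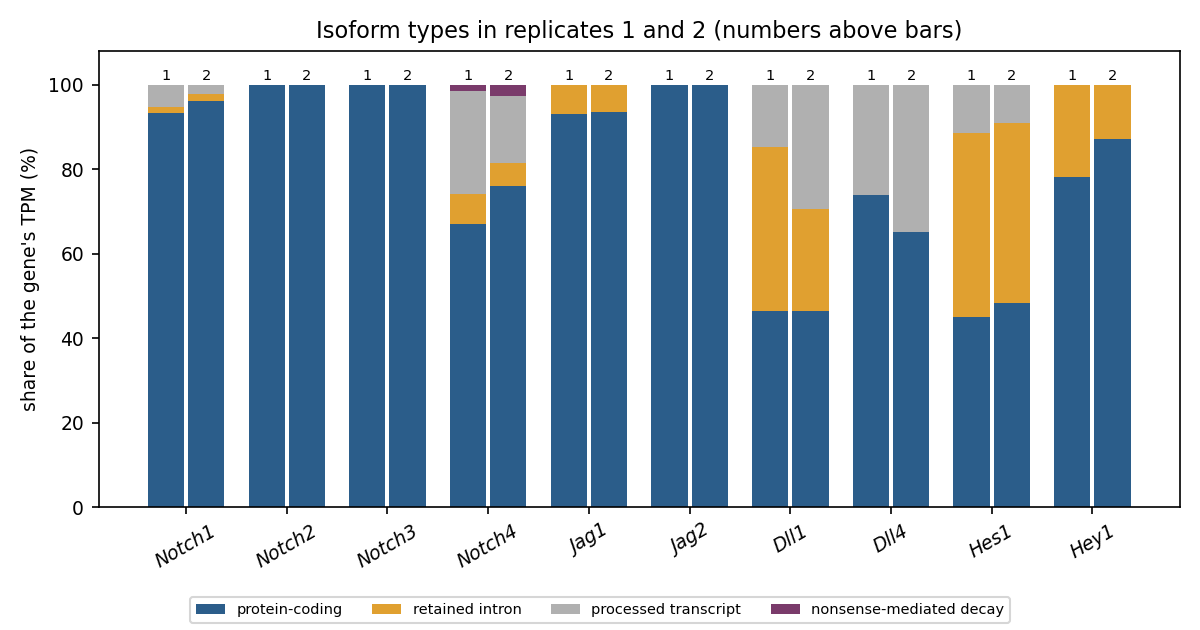
Share of each Notch gene's TPM, in percent, that lay in protein-coding, retained-intron, processed-transcript and nonsense-mediated-decay isoforms, with replicate 1 as the left and replicate 2 as the right bar of each pair. Protein-coding isoforms held under 50% of Dll1 and Hes1 in both libraries and 100% of Notch2, Notch3 and Jag2.

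The coding shares are set here beside those of all genes, as a description. Across 11854 protein-coding genes at 1 TPM or more, the median share of TPM in coding isoforms was 99.2%, and 19.2% of genes had less than 75%. Among the 10 Notch genes the median was 87.9%, and 4 of 10 (40.0%) had less than 75%, namely Hes1, Dll1, Dll4 and Notch4. Hes1 and Dll1 stood at percentiles 7.75 and 7.74 of that distribution. The deposited SD of the gene-level count was 0 for each Notch gene except Notch2 in replicate 1, where it was 0.49 counts. Uncertainty in assigning fragments thus lay in the split among isoforms and not in the gene counts. An SD of 0 covers no counting error. Gene TPM kept an interval, such as 10.8 to 29.6 TPM for Notch1 in replicate 2. Whether counting used strand is not stated in the sources used here. Opposite-strand exons overlap Notch1 (0610009E02Rik and Gm13568), Notch3 (Gm17276), Dll1 (A930024N18Rik) and Dll4 (Gm14207). The one with the most counts, 0610009E02Rik, had 166 expected counts in replicate 1 and 195 in replicate 2, against 6394 and 7133 for Notch1. On the same strand, Gm42820 shares 541 exonic bases with Notch2, and no count was found under its name. Its effect on the Notch2 count was not tested.

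All 10 Notch genes had a higher TPM in replicate 1, by 1.07 to 1.68 times, but so did most genes: the median TPM ratio, replicate 1 over replicate 2, was 1.38 for the Notch genes and 1.14 over the 13108 genes. The libraries were compared on counts after TMM scaling, which sets the trimmed mean of the log ratios over genes to 0, and the median log2 ratio was then 0.22 for the Notch genes and -0.00011 over all 13108. The median absolute log2 ratio was 0.22 for the Notch genes and 0.19 over all. In the two-sided exact binomial test, adjusted by Benjamini-Hochberg over 18723 genes, 0 of 10 Notch genes were called at an adjusted p below 0.05 with at least a 2-fold difference. Over all genes tested, 2.62% were called higher in replicate 1 and 5.55% higher in replicate 2, or 8.17% in either direction. Among the 13100 genes tested at 1 TPM or more, where all Notch genes lie, 1.85% were called in either direction. At any fold, 7 of 10 Notch genes had an adjusted p below 0.05, all with replicate 1 higher, beside 28% of all genes with replicate 1 higher and 29.6% with replicate 2 higher. The same 7 had an unadjusted p below 0.05, beside 61% of all genes. These any-fold shares cover all 18723 genes tested, also those under 1 TPM. They are not matched to the Notch genes in counts, so no excess is read from them. The same holds for the any-fold shares given below for the marker and pathway lists. With 1 group, the test sets the reads of these libraries against each other and tests no condition.

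The largest scaled count ratios belonged to Hes1, Notch3 and Notch2. Hes1 had 2286 expected counts in replicate 1 and 1987 in replicate 2, a scaled ratio of 1.43 (95% interval 1.34 to 1.51, exact binomial test, adjusted p = 6.70e-30). Notch3 had 5240 in replicate 1 and 4625 in replicate 2, a scaled ratio of 1.40 (1.35 to 1.46, adjusted p = 4.26e-62 in the same exact test). Notch2 had 8466 in replicate 1 and 8211 in replicate 2, a scaled ratio of 1.28 (1.24 to 1.32, adjusted p = 7.65e-55). In scaled counts these are small differences that deep counts resolve, each under 1.5-fold. In TPM the ratios of replicate 1 over replicate 2 were 1.68 for Hes1, 1.57 for Notch3 and 1.43 for Notch2. Dll1, with 1077 and 1105 counts, had a ratio of 1.21 (1.11 to 1.31, adjusted p = 3.28e-05). Notch4, with 3364 and 3618 counts, had a ratio of 1.15 (1.10 to 1.21, adjusted p = 1.61e-08). Jag1, with 1404 and 1550 counts, had a ratio of 1.12 (1.04 to 1.21, adjusted p = 0.00409). Notch1, with 6394 and 7133 counts, had a ratio of 1.11 (1.07 to 1.15, adjusted p = 5.14e-09).

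The other 3 genes did not pass the exact test at any fold. Dll4, with 1667 counts in replicate 1 and 1958 in replicate 2, had a scaled ratio of 1.05 (0.988 to 1.13, adjusted p = 0.167). Jag2, with 1141 and 1417 counts, had a ratio of 0.998 (0.922 to 1.08, adjusted p = 0.993), and its sign turned under other scalings. Hey1, with only 217 and 227 counts, had a ratio of 1.18 with the widest interval (0.979 to 1.43, adjusted p = 0.121).

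**Figure D3:**
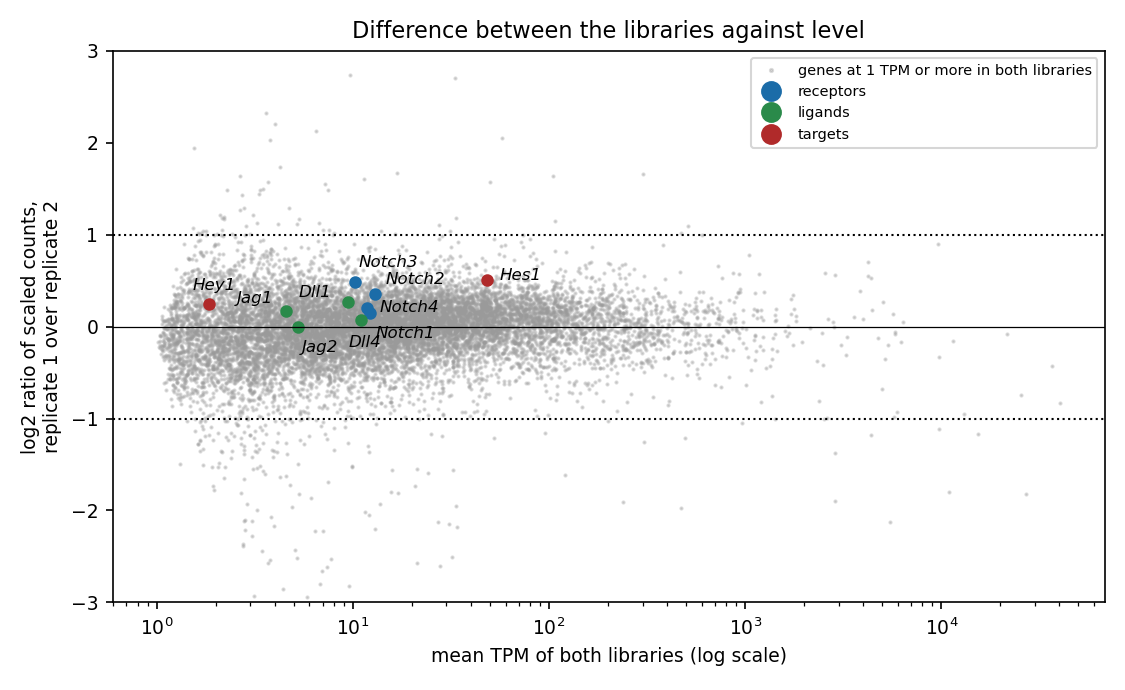
Log2 ratio of TMM-scaled counts, replicate 1 over replicate 2, against the mean TPM of both libraries (log axis). Grey points are the 13108 genes at 1 TPM or more, of which 12 lie outside the vertical axis, and coloured points are receptors, ligands and targets. Dotted lines mark a 2-fold difference, and all 10 Notch genes lie between them.

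Markers of the vessel wall also differed between the libraries. Mural genes, which mark smooth muscle and pericytes, summed to 307 TPM in replicate 1 and 156 TPM in replicate 2, with a median log2 ratio of 0.87. In the exact binomial test 2 of 7 were called higher in replicate 1, beside 2.62% of all genes tested. Among genes tested at 1 TPM or more, where all 7 lie, 1.85% were called in either direction. Acta2, smooth muscle actin, had 153 TPM in replicate 1 and 61.5 TPM in replicate 2, with a scaled count ratio of 2.21 (95% interval 2.15 to 2.28). Cnn1, a calponin of smooth muscle chosen by its call, had 6.11 TPM in replicate 1 and 1.08 TPM in replicate 2, with a scaled count ratio of 5.02 (4.25 to 5.96). Tagln, the second highest of the list, had 71.7 TPM in replicate 1 and 33.0 TPM in replicate 2. At any fold 6 of the 7 had an adjusted p below 0.05 with replicate 1 higher, beside 28% of all genes tested. Pdgfrb, Cspg4 and Myh11 had scaled count ratios of 1.12, 1.46 and 1.83. Rgs5, a pericyte gene, had replicate 2 higher with a ratio of 0.891. The size of the difference thus varied widely within the list. The mural part in the Notch3 ratio was not tested.

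By median log2 ratio, endothelial and arterial genes moved less than mural genes. The 8 endothelial genes, led by Plvap and Egfl7, summed to 933 TPM in replicate 1 and 781 TPM in replicate 2. Their median log2 ratio was -0.04. At 2-fold 0 of 8 were called, beside 8.17% of all genes tested and 1.85% of those at 1 TPM or more. At any fold 2 had an adjusted p below 0.05 with replicate 1 higher and 4 with replicate 2 higher. The shares of all genes tested were 28% and 29.6%. The 5 arterial genes, led by Efnb2 and Sox17, summed to 90.2 TPM in replicate 1 and 58.5 TPM in replicate 2. Their median log2 ratio was 0.16, and 0 of 5 were called, beside 8.17% of all genes tested. At any fold 4 had an adjusted p below 0.05 with replicate 1 higher, beside 28% of all genes tested. Dll4 and Notch4, the Notch genes best known in endothelium, had log2 ratios of 0.08 and 0.20 beside these markers. The part of the adrenal, muscle and Cd79a differences in any Notch gene's value was not tested.

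**Figure D4:**
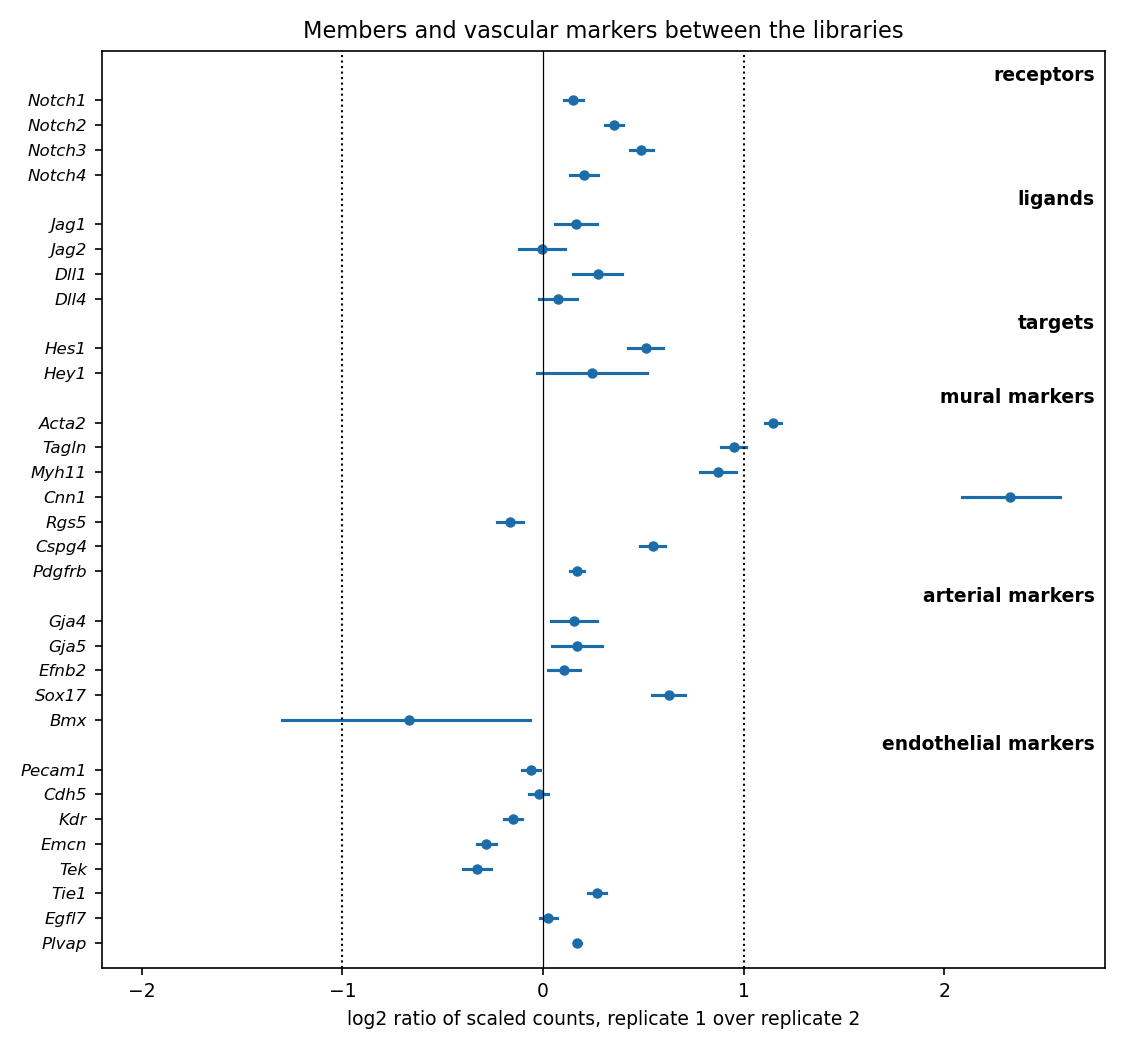
Log2 ratio of TMM-scaled counts, replicate 1 over replicate 2, for the Notch genes and the mural, arterial and endothelial markers. Points are the ratios and horizontal bars their 95% exact binomial intervals, which cover counting error only. Notch genes lie between -0.0035 and 0.51, and the mural genes Acta2 and Cnn1 lie beyond the dotted 2-fold line.

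Other genes of the pathway were present at almost every step. Of 56 listed genes, 47 had 1 TPM or more in both libraries. Of the 52 with enough counts for the exact test, 1 was called higher in replicate 1 and 1 higher in replicate 2, beside 2.62% and 5.55% of all genes tested. In that test, at any fold, 25 of the 52 had an adjusted p below 0.05 with replicate 1 higher, and 16 with replicate 2 higher. The shares of all genes tested were 28% and 29.6%. The median log2 ratio of the 52 was 0.07. Dlk2, a non-canonical ligand, had 0.86 TPM in replicate 1 and 0.40 TPM in replicate 2, with a scaled count ratio of 2.26 (1.46 to 3.54, exact test, adjusted p = 0.000314). Dtx1, a Deltex ubiquitin ligase that binds Notch, had 1.18 TPM in replicate 1 and 2.69 TPM in replicate 2, from 130 and 537 counts, and its scaled count ratio of replicate 2 over replicate 1 was 3.33 (adjusted p = 3.32e-41 in the exact test).

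The receptor-modifying and receptor-cutting enzymes were all detected. Each of the 5 glycosyltransferases that modify the Notch extracellular domain had 1 TPM or more, led by the fringe enzymes Rfng, at 62.0 TPM in replicate 1 and 45.7 TPM in replicate 2, and Lfng, at 19.8 TPM in both. Each of the 10 protease genes, which cover furin, ADAM proteases and gamma-secretase subunits, was detected. They were led by the gamma-secretase subunits Aph1a, at 207 TPM in replicate 1 and 166 TPM in replicate 2, and Psenen, at 141 TPM in replicate 1 and 160 TPM in replicate 2. Among the 4 ubiquitin ligases that act on ligands, 3 were detected, led by Mib2, at 55.9 TPM in replicate 1 and 38.2 TPM in replicate 2, and Neurl1b, at 22.1 TPM in replicate 1 and 14.6 TPM in replicate 2.

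In the nucleus, all 8 activator genes and all 8 corepressor genes were detected. The activators were led by the histone acetyltransferases Kat2a, at 22.4 TPM in replicate 1 and 17.2 TPM in replicate 2, and Ep300, at 17.1 TPM in replicate 1 and 14.7 TPM in replicate 2. The corepressors were led by Ctbp1, at 111 TPM in replicate 1 and 87.3 TPM in replicate 2, and Ncor1, at 85.6 TPM in replicate 1 and 84.2 TPM in replicate 2. Their median level was 22.6 TPM in replicate 1 and 23.5 TPM in replicate 2, beside 9.31 and 8.20 TPM for the activators in those libraries. All 9 genes listed as negative regulators were detected, and their effect on Notch was not tested. Dtx3, of the Deltex family, led the list at 102 TPM in replicate 1 and 67.0 TPM in replicate 2. Numb, an endocytic inhibitor of Notch, came next at 58.6 TPM in replicate 1 and 42.1 TPM in replicate 2.

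The remaining ligand and target family members were mostly low. Of the 4 other ligands 1 was detected, Dlk1, a non-canonical ligand at 3.54 TPM in replicate 1 and 2.25 TPM in replicate 2. Dll3, which acts within the cell that makes it, had 2 counts in replicate 1 and 0 in replicate 2. Of the 8 other Hes and Hey genes 3 were detected. Hes6, which is known to counteract Hes1, led them at 51.4 TPM in replicate 1 and 42.5 TPM in replicate 2, and Heyl followed at 2.70 and 2.71 TPM in those libraries. Hes3, Hes5 and Helt had no more than 2 counts in either library, at most 0.02 TPM. A count of 0 allows up to 3 counts per library, counting error only.

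**Figure D5:**
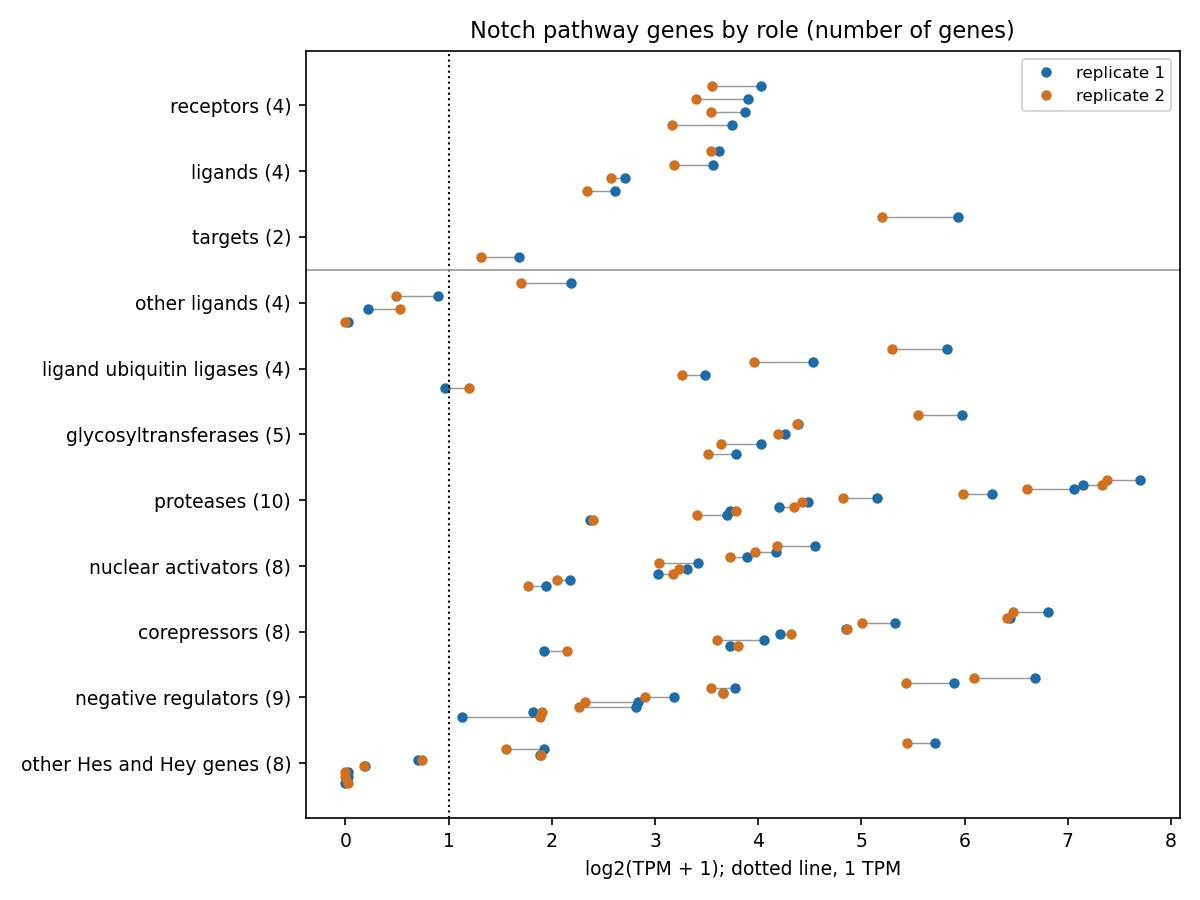
Level of the Notch genes and of the listed pathway genes by role, as log2(TPM + 1), with replicate 1 and replicate 2 joined by a line for each gene. The dotted line marks 1 TPM and the numbers beside the roles count genes. Gene groups of the receptor-cutting and nuclear steps lie to the right of the line, while most other ligands and most other Hes and Hey genes lie to its left.

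Promoters of 300 bases, 250 before and 50 after the annotated start, were available from RefSeq on build GRCm38.p6 for 8 of the Notch genes, as 9 promoters: all 4 receptors and all 4 ligands, but not the targets Hes1 and Hey1. The RBPJ core site GTGGGAA, searched on both strands, was in 0 of the 9 promoters and in 6.38% of 32851 promoters of the same length. The shorter core TGGGAA, which lies within it, was in 0 of 9 and in 25.6% of all. The N-box CACNAG, the kind of site that Hes proteins bind, was in 5 of 9 promoters and in 42.5% of all. These 5 belonged to Notch1, Notch2, Notch3, Dll1 and Dll4, and those of Notch1 and Notch3 held several matches. Median GC content was 63.7% in these 9 promoters and 52.7% in all. A match is a description of letters in this window, and an absent match says only that these letters are not in it.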

How the data were processed

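Kidney RNA labelled polyadenylated, depleted of ribosomal RNA and over 200 nt long was sequenced as stranded pairs of 76 nt with spike-ins added, per the labels. The tables used build mm10 and annotation M4, according to the text records that accompany them. For the aligner and the quantifier, the names were not given in the sources used here. Per the file headers, the authors deposited an expected count, TPM and FPKM per gene and transcript. Per the file headers they also deposited posterior means, the SD of a count and TPM interval bounds of unstated level, which are signal values of the quantification. Isoform shares are a deposited percent of the gene's TPM. Junction and contig tables, on mm9, were not used here.

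Names, positions and isoform types came from GENCODE M21 on GRCm38, which named 42462 of 43346 gene identifiers. Lengths of Notch2-201, Notch3-201 and Jag2-201 are 10500, 8016 and 5106 nt there, against the deposited 10506, 8044 and 4054 nt. The Jag2 TPM rests on the shorter deposited length, and the effect of that was not tested. All 97 spike-in rows (1.59% of expected counts in replicate 1 and 2.29% in replicate 2) and 26248 numeric rows, all at 0, were left out. Expected counts were rounded and scaled by TMM in edgeR 4.0.16 (R 4.3.3), with factors of 1.02 and 0.977 for replicates 1 and 2. A two-sided exact binomial test per gene with 10 or more counts in sum (scipy 1.17.1) was adjusted by Benjamini-Hochberg over all genes tested. Genes were called at an adjusted p below 0.05 and an absolute log2 ratio of 1 or more, with a prior count of 0.5 where a library had 0. The script was tested on simulated data. Intervals (95%) and the floor of 3 counts cover counting error only, since no molecular identifiers are named. No model of the spread could be fitted between single libraries. DESeq2 1.42.0 size factors, other filters, folds, units and single libraries were alternatives.

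The Notch genes, pathway lists and markers were chosen with earlier results of these data known. Named genes were all 10 Notch genes, the 2 highest of each list, listed pathway genes under 0.1 TPM in both libraries or called, and isoforms that lead or reach 10%. Cnn1, Rgs5, Myh11, Cspg4 and Pdgfrb were named outside that rule after their values were seen, as were the genes whose exons overlap Notch genes. The summed level of the lymphocyte marker list is not reported here. The coding-isoform values were chosen after seeing the data.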

Additional observations from a re-analysis of the deposited data

How the results depend on the processing

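All 10 Notch genes were detected at 0.5 TPM, in posterior mean TPM and FPKM, in each library alone and for coding isoforms only, and 9 at 2 TPM, where Hey1 dropped out. The listed pathway genes detected ranged from 45 to 49 and those called from 2 to 3. No Notch gene was called at 2-fold under any scaling, filter or count tried, nor at 1.5-fold. Genes called between libraries numbered 1529, against 874 with a filter of 50 counts and 2697 at 1.5-fold. Of these calls, 32.0% had replicate 1 higher, and over the settings 23.0% (50 counts) to 38.5% (total counts). The Jag2 log2 ratio turned from -0.0035 to 0.0029 with DESeq2 size factors, 0.064 with total counts, and 0.13 and 0.16 in TPM with pseudocounts of 1 and 0.1. The other 56 ratios recomputed kept their sign and none reached 2-fold. Posterior mean TPM moved the receptor shares of Notch1, Notch2 and Notch3 to 31.6%, 24.7% and 19.3%. Counts without division by length moved Notch1, Notch2 and Notch4 to 28.7%, 35.4% and 14.8%, and Jag1, Jag2, Dll1 and Dll4 to 26.1%, 22.5%, 19.3% and 32.0% of the ligands. Coding isoforms only moved Notch2, Notch3 and Notch4 to 30.2%, 23.5% and 19.4%, and Jag1, Jag2 and Dll1 to 19.8%, 24.4% and 20.3%. Posterior means moved the leading isoform share to 72.2% for Notch1, 64.9% for Notch4, 92.7% for Jag1, 45.0% for Dll1 and 73.1% for Hey1. The causes were not tested. In either library alone, receptor shares lay between 20.4% and 27.6% and ligand shares between 14.6% and 38.3%. No paired analysis was possible because there is 1 group of 2 libraries, and leaving out a library leaves no comparison between libraries. Hey1, with 217 and 227 counts, had the widest ratio interval of the Notch genes, and 2 libraries with the same donor label give no estimate of spread between animals.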
